A study of Arabidopsis thaliana with 18 samples.

Results

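The UDP-glycosyltransferase (UGT) genes described here are the probe sets that the platform annotation pairs with a single gene whose symbol is UGT followed by a number, without the flavonoid genes UGT78D1 and UGT78D2. The rule took 45 probe sets for 45 genes, of 13513 probe sets with 1 gene, and all 45 loci matched the RefSeq gene table under the same symbol. A further 3 probe sets with a UGT symbol were shared between genes (UGT73B2 with UGT73B3, UGT71D1 and UGT89B1 each with a locus code) and were left out by the rule. Expression was measured in Arabidopsis thaliana leaves on 18 Affymetrix arrays, 1 per sample and 3 per group. Per the labels, every plant, controls included, was held in 150 mM NaCl for 24 hours. The plants, 2 weeks old, then received 1 of 3 treatments: a methanol extract (MEA) made from Ascophyllum nodosum, a brown seaweed, an ethyl acetate sub-fraction of it (EAA), or aqueous methanol with no extract (the reference). Leaves were taken on day 1 and on day 5 of treatment. The 6 reference arrays are called so by their source name, which gives NaCl alone, while their titles and descriptions give EAA, so each comparison with the reference rests on the source name. The labels name no genotype. They speak of biological replicates without saying whether plants were grown or pooled separately, so p-values measure the spread between these samples, which may be technical. There was no group without salt.

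UDP-glycosyltransferases move a sugar, in plants mostly glucose, from a UDP-sugar onto a small molecule. The attached sugar usually makes the acceptor more soluble and, for hormones, inactive or storable, so the family sets how much of a hormone, phenolic or foreign compound is free. Members are named by sequence, with a number for the family, a letter for the subfamily and a last number for the gene. Substrates differ within a subfamily and are often known from tests of the purified enzyme alone. In leaves of Arabidopsis, members are known to act on abscisic acid, auxins, cytokinins, salicylic acid, hydroxycinnamic acids, monolignols, glucosinolate precursors and sterols.

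Some arrays stood apart, and the members followed them. Along the direction from the day 1 to the day 5 reference arrays, set at 0 and 1 over the 4220 probe sets that changed there, the EAA day 5 arrays lay at 0.92 to 1.02 and MEA day 5 replicate 2 at 0.94, whereas MEA day 5 replicates 1 and 3 lay at 0.23 and 0.19. Over the 7 UGT genes among those probe sets, the 3 MEA day 5 arrays lay at 0.11, 0.84 and 0.36 in replicate order. The log2 difference between 3' and 5' probe sets of the actin transcript, a sign of RNA integrity, was 2.88 and 2.3 in MEA day 5 replicates 1 and 3 and 2.78 in EAA day 5 replicate 1, against 1.56 to 2.03 in the other 15 arrays. For the GAPDH transcript it was 1.06 and 0.3 in MEA day 5 replicates 1 and 3 and 0.79 in EAA day 5 replicate 1. The other 15 arrays lay at -0.13 to 0.5, so MEA day 5 replicate 3 stood out in actin alone. The part of RNA integrity in the results was not tested. The median SD of the tested UGT genes was 0.425 in the MEA day 5 group and 0.144 to 0.293 in the others. For comparisons that do not use MEA day 5, the fit of all 18 arrays is therefore given beside a fit of the 15 arrays without that group. Of the leaf markers, RCA (rubisco activase) had a named probe set and stood at 13.32 to 14.02, and the root markers PYK10 and EXPA7 stayed at 3.97 or below in every array. No other marker looked for has a named probe set here.

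Of the 45 genes, 25 reached the mean log2 signal of 4.01 that a probe set had to have to be tested (the 40th percentile over all 22746 non-control probe sets). UGT72E2 lay just inside, at 4.01, and UGT84A1 just outside, at 3.94. Of the 20 genes below it, 15 stayed under 4.01 in every array. These were UGT71B5, UGT71B8, UGT71C1, UGT71C2, UGT71C3, UGT72E3, UGT73B4, UGT73C2, UGT73C7, UGT73D1, UGT76D1, UGT76E1, UGT78D3, UGT84B1 and UGT84B2, among them genes of enzymes for auxin (UGT84B1) and defence compounds (UGT76D1). UGT74F1, a salicylic acid glucosyltransferase gene, UGT76B1, whose enzyme glucosylates salicylic acid and the defence signal isoleucic acid, and UGT76E2 passed 4.01 in single arrays only. UGT84A1 and UGT85A3 passed it in a group mean, UGT84A1 with EAA (4.44) and in the reference (4.2) on day 5, UGT85A3 with EAA on day 5 (4.02) and in the reference on day 1 (4.1). Signals of different probe sets are not amounts on 1 scale, so a gene is compared here only with itself, and fewer cells with a transcript cannot be told apart from less transcript per cell.

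**Figure D1:**
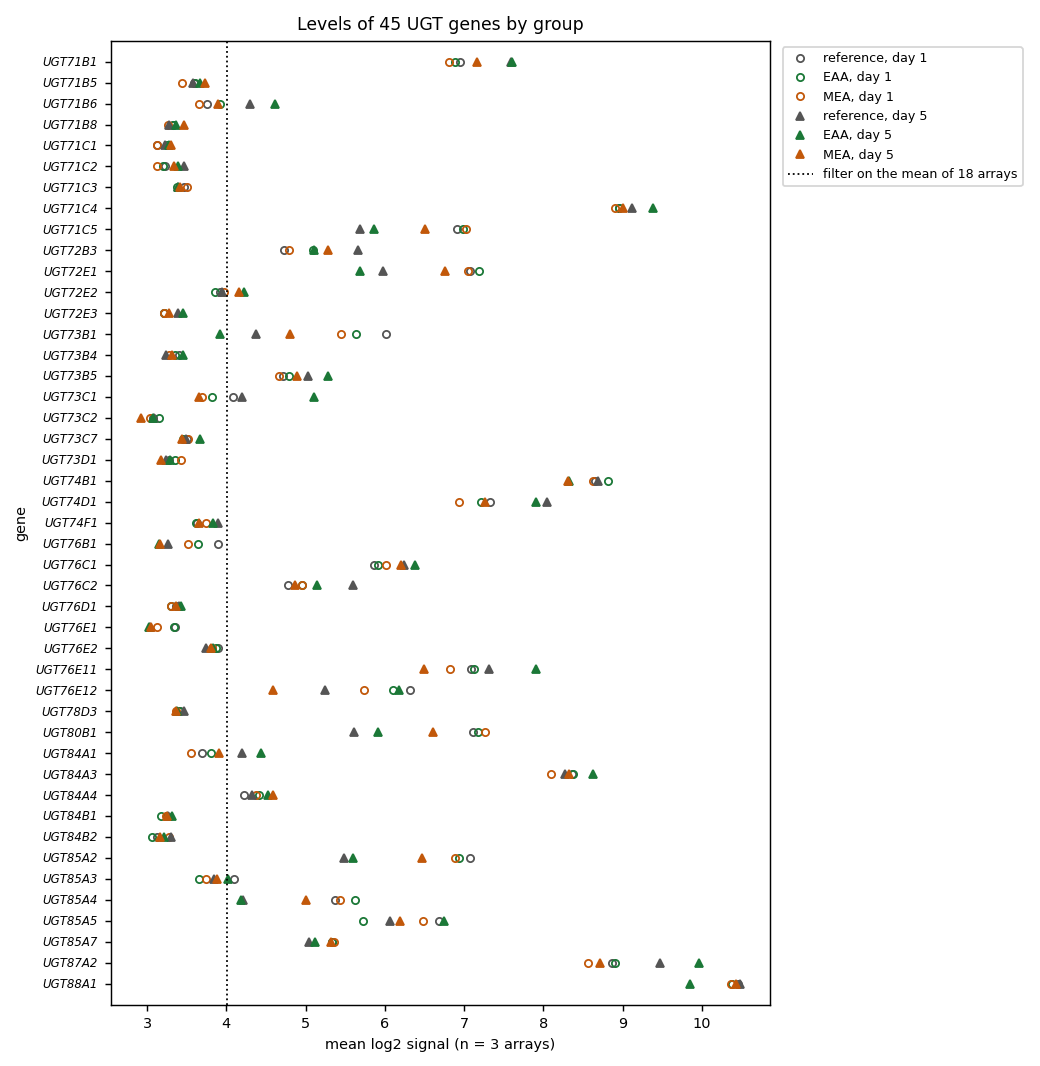
Mean log2 signal of each of the 45 UGT genes in the 6 groups (n = 3 arrays each); open circles are day 1, filled triangles day 5, and the dotted line is the filter value of 4.01. In genes such as UGT73B1, UGT80B1 and UGT85A2 the day 5 triangles of the reference and EAA lie apart from the circles, with MEA day 5 between them.

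The main difference among the tested genes was between the days. In the reference leaves 7 of 25 passed an adjusted p of 0.05 (limma, Benjamini-Hochberg), 5 lower and 2 higher on day 5, a share of 28% against 30.9% of all 13648 probe sets tested (16.9% lower, 14.1% higher). With EAA 11 of 25 passed, 7 lower and 4 higher, a share of 44% against 36.5% (20.8% lower, 15.7% higher). In the fit of 15 arrays these counts were 11 (4 higher, 7 lower) against 43.9% of all probe sets (20.8% higher, 23.2% lower) and 15 (8 higher, 7 lower) against 48% (21.5% higher, 26.5% lower). The shares of the family in the reference lay near those of the whole array, and the difference in share with EAA was not tested. Centring the arrays on their medians gave 4 higher and 5 lower in the reference (31.1% of all probe sets passing) and 8 higher and 6 lower with EAA (37.8%). The shares of all probe sets by direction are not given for the centred arrays. With EAA the balance of directions thus turned with the scaling, as it did with the fit of 15 arrays, while no called gene changed sign with the scaling. That centring raises every difference between the days by 0.09 in the reference, 0.11 with EAA and 0.08 with MEA. The time comparisons of the reference and of EAA share no arrays, and 6 genes passed in both, all in the same direction, which is 85.7% of the reference list and 54.5% of the EAA list. Over all probe sets tested the shared calls were 73.7% of the reference list and 62.6% of the EAA list, and all of them had the same direction too.

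**Figure D2:**
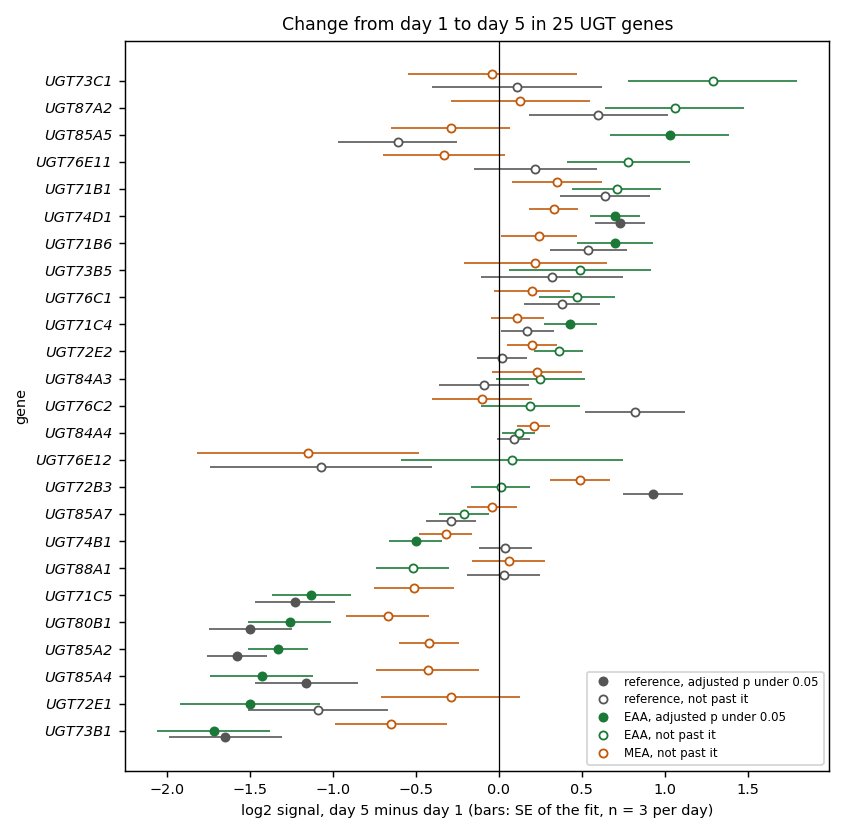
Difference in log2 signal between day 5 and day 1 in the 25 tested UGT genes, in the reference, EAA and MEA leaves, with the SE of the fit of 18 arrays (n = 3 arrays per day); filled points passed an adjusted p of 0.05. UGT71C5, UGT80B1, UGT85A2, UGT85A4 and UGT73B1 lie to the left with filled points in both the reference and EAA, and no MEA point is filled.

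The UGT85A genes did not move as a block. The subfamily includes enzymes that glucosylate cytokinins and, in other plants, cyanohydrins. UGT85A2 (AT1G22360) read 6.96, 7.3 and 6.95 in the 3 reference arrays of day 1 and 5.19, 5.86 and 5.43 on day 5, and with EAA 6.89, 6.9 and 7.01 against 5.58, 5.62 and 5.6. Every day 5 array lay below every day 1 array in both treatments. The gene fell by 1.58 on the log2 scale in the reference (SE 0.18, adjusted p = 2.73e-05, a 2.98-fold fall) and by 1.33 with EAA (SE 0.18, adjusted p = 0.000267).

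UGT85A4 (AT1G78270), which lies away from the other UGT85A genes, read 5.5, 5.14 and 5.48 on day 1 and 3.83, 4.42 and 4.39 on day 5 in the reference. With EAA it read 5.64, 5.43 and 5.78, then 4.14, 4.4 and 4.01. The groups did not overlap. It fell by 1.16 (SE 0.31, adjusted p = 0.0109) and 1.43 (SE 0.31, adjusted p = 0.00321), to group means of 4.21 and 4.18 close to the filter value, so the size of the fall is uncertain. UGT85A7 differed by -0.29 and -0.21 without passing, and UGT85A3 was too low to test.

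UGT85A5 (AT1G22370), whose overexpression in tobacco is known to raise salt tolerance, ran the other way with EAA. In the reference it read 6.68, 6.89 and 6.5 on day 1 and 6.03, 6.03 and 6.16 on day 5. With EAA it read 5.46, 6.06 and 5.65 on day 1 and 6.91, 6.89 and 6.44 on day 5. The reference arrays of day 5 all lay below those of day 1, and the EAA arrays of day 5 all lay above those of day 1. With EAA the gene rose by 1.03 over time (SE 0.36, adjusted p = 0.0358). In the reference the difference was -0.61 (SE 0.36, adjusted p = 0.203), and it passed as a fall in the fit of 15 arrays (SE 0.17, adjusted p = 0.0076).

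**Figure D3:**
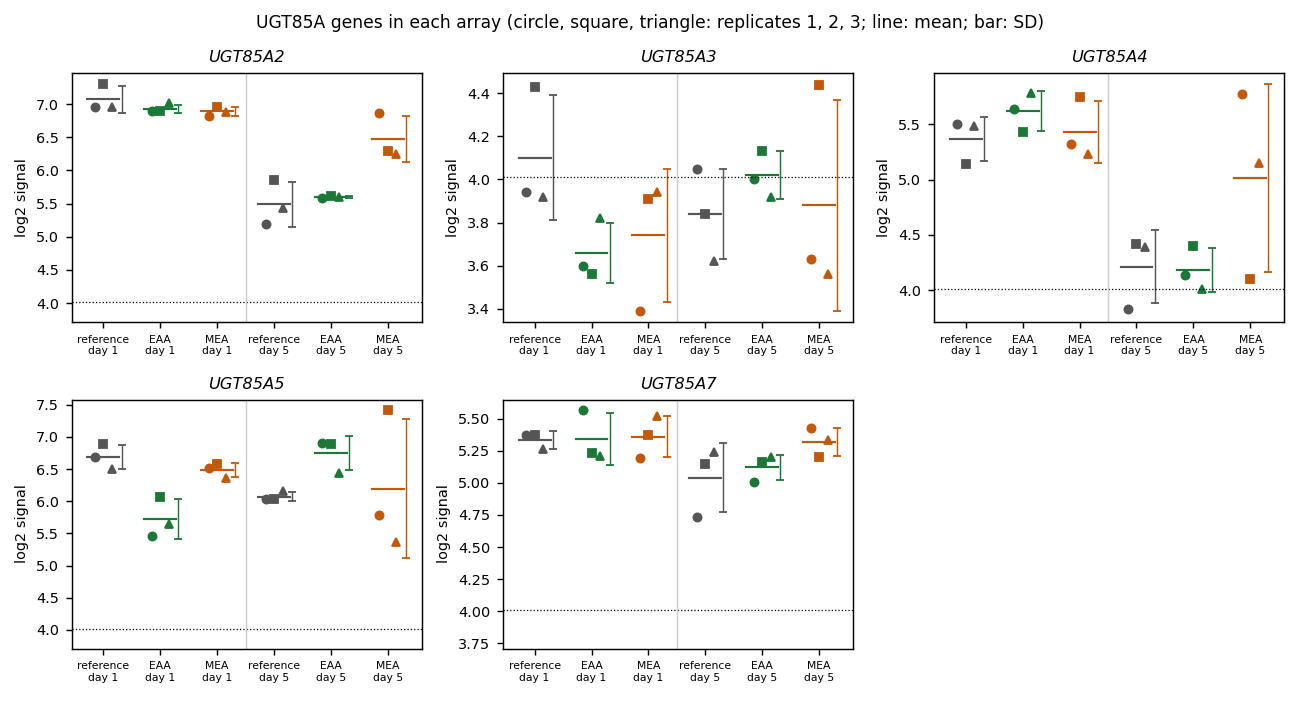
Log2 signal of the 5 UGT85A genes in every array by group, with the group mean as a line, the SD as a bar (n = 3) and the filter value of 4.01 as a dotted line. UGT85A2 and UGT85A4 are lower on day 5 in the reference and EAA, while UGT85A5 is low with EAA on day 1 and high with EAA on day 5, with its MEA day 5 arrays spread from 5.37 to 7.41.

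Compared directly on day 1, all 3 EAA arrays of UGT85A5 lay below all 3 reference arrays, a difference of -0.97. The fit of 18 arrays did not call it (SE 0.36, adjusted p = 1), and the fit of 15 arrays did (SE 0.17, adjusted p = 0.0227, 95% interval -1.32 to -0.61), when 0.183% of all probe sets passed (0.044% lower, 0.139% higher). On day 5 all 3 EAA arrays lay above the reference, by 0.67 (fit of 15 arrays, SE 0.17, adjusted p = 0.0597, interval 0.32 to 1.03), which did not pass. The change of the EAA difference from day 1 to day 5 was 1.64. It did not pass in the fit of 18 arrays (SE 0.51, adjusted p = 0.778, with 0.00733% of probe sets passing) and passed in the fit of 15 (SE 0.23, adjusted p = 0.00738, interval 1.14 to 2.14, with 0.718% passing, 0.3% higher and 0.418% lower). Without EAA day 5 replicate 1 as well it was 1.56 (adjusted p = 0.0152), and without reference day 5 replicate 2 as well it was 1.62 (adjusted p = 0.0133).

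With MEA on day 1 UGT85A5 read 6.51, 6.58 and 6.36, overlapping the reference (difference -0.2, interval -0.56 to 0.15 in the fit of 15 arrays). EAA lay below MEA by 0.76 on day 1 with no overlap, with an adjusted p = 0.142 in the fit of 15 arrays and an adjusted p = 0.0424 in a fit of the 9 day 1 arrays (0.784% of all probe sets passing), which was added after the data were seen. The labels give no dose for either extract, so doses cannot be matched in this comparison. UGT85A5 was the 1 member to pass for an extract on day 1 in any of these fits.

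UGT80B1 (AT1G43620) encodes a sterol glucosyltransferase, the enzyme class that makes the steryl glucosides of plasma membranes and seed coats. It read 7.17, 6.99 and 7.17 in the reference on day 1 and 5.8, 5.38 and 5.64 on day 5, and with EAA 7.1, 7.25 and 7.18, then 6.32, 5.91 and 5.51. The days did not overlap. It fell by 1.5 in the reference (SE 0.25, adjusted p = 0.000499, a 2.84-fold fall) and by 1.26 with EAA (SE 0.25, adjusted p = 0.00209). The other sterol glucosyltransferase gene, annotated as SGT (AT3G07020, also known as UGT80A2) and so no member, was looked up after the values of UGT80B1 were seen. It stayed between 6.94 and 7.71 in all 18 arrays, with time differences of 0.05 in the reference and -0.06 with EAA (SE 0.17 each, neither passing). The difference between both genes was not tested.

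Among genes of hormone conjugation, UGT71C5 (AT1G07240), whose enzyme glucosylates abscisic acid, read 7.06, 6.78 and 6.91 on day 1 and 5.4, 5.88 and 5.78 on day 5 in the reference. With EAA it read 7, 7.06 and 6.91, then 5.89, 5.96 and 5.73. It fell by 1.23 (SE 0.24, adjusted p = 0.00152) and 1.13 (SE 0.24, adjusted p = 0.00285), with no overlap. UGT71B6, another abscisic acid glucosyltransferase gene, stood near the low end (3.53 to 5.26 over all arrays) and rose by 0.7 with EAA (SE 0.23, adjusted p = 0.0294), from a mean of 3.92 to 4.61, of which EAA day 5 replicate 1 read 5.26 and the other replicates 4.29 each. Without that array, in the fit of the 14 arrays left after MEA day 5 was also set aside, the difference was 0.37 (adjusted p = 0.113). In the reference its difference was 0.54 without passing.

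UGT74D1 (AT2G31750), an auxin glucosyltransferase gene, read 7.3, 7.3 and 7.38 on day 1 and 8.16, 7.91 and 8.09 on day 5 in the reference. With EAA it read 7.45, 7.14 and 7.04, then 8.01, 7.88 and 7.84. It rose by 0.73 (SE 0.15, adjusted p = 0.00217, 1.65-fold) and 0.7 (SE 0.15, adjusted p = 0.00291), again with no overlap. IAGLU, another gene of auxin glucosylation with a different symbol, rose by 1.58 and 1.43 in the same comparisons.

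The cytokinin N-glucosyltransferase genes UGT76C1 and UGT76C2 are neighbours in the genome. UGT76C2 (AT5G05860) read 4.72, 5.03 and 4.59 on day 1 and 5.05, 5.85 and 5.91 on day 5 in the reference, a difference of 0.82 (SE 0.3, adjusted p = 0.051) that passed in the fit of 15 arrays (adjusted p = 0.00765). With EAA it read 4.83, 4.92 and 5.09, then 5.01, 5.1 and 5.3, a difference of 0.19 with overlapping days. UGT76C1 differed by 0.38 in the reference and by 0.47 with EAA, and passed in the fit of 15 arrays with EAA (adjusted p = 0.0344).

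Among genes of phenolic conjugation, UGT72E1 (AT3G50740), one of the monolignol glucosyltransferase genes of the lignin pathway, read 7.01, 7.04 and 7.16 on day 1 and 6.07, 5.37 and 6.52 on day 5 in the reference, and with EAA 6.96, 7.2 and 7.41, then 5.96, 6.01 and 5.11. It fell with EAA by 1.5 (SE 0.42, adjusted p = 0.0134). That call was lost without EAA day 1 replicate 3 (adjusted p = 0.0512) or EAA day 5 replicate 3 (adjusted p = 0.0562), and held in the fit of 15 arrays (adjusted p = 0.000269). In the reference the difference of -1.09 passed only in the fit of 15 arrays (adjusted p = 0.00343). UGT72E2 did not pass in any comparison, nor did the hydroxycinnamate glucosyltransferase genes UGT84A3 and UGT84A4, which kept within 7.46 to 8.97 and 4.21 to 4.69.

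UGT72B3 (AT1G01420) read 4.64, 4.64 and 4.92 on day 1 and 5.47, 5.57 and 5.94 on day 5 in the reference, and rose by 0.93 (SE 0.18, adjusted p = 0.00157). With EAA it read 5.03, 5.09 and 5.18, then 5.27, 5 and 5.06, a difference of 0.01 with overlapping days. The EAA arrays lay above all reference arrays on day 1 (by 0.37) and below all of them on day 5 (by 0.55), and the change between these differences, -0.91, did not pass (SE 0.26, adjusted p = 0.65, and 0.0661 in the fit of 15 arrays). GT72B1, a close relative under another symbol whose enzyme conjugates phenols and foreign compounds, rose by 1.11 in the reference and 1.1 with EAA. AT1G01390, a glycosyltransferase gene with a locus code near that of UGT72B3, differed by 1.02 in the reference and by -0.05 with EAA. Its EAA arrays differed from the reference by 0.6 on day 1 and by -0.48 on day 5. Its mean signal of 4.29 lay near the filter value.

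Members with less settled substrates moved both ways. UGT73B1 (AT4G34138) read 5.99, 6.45 and 5.63 on day 1 and 4.39, 4.31 and 4.41 on day 5 in the reference, and with EAA 5.99, 5.61 and 5.33, then 4.06, 3.9 and 3.82. It fell by 1.65 (SE 0.34, adjusted p = 0.00217) and 1.72 (SE 0.34, adjusted p = 0.00197), a 3.14-fold and 3.29-fold fall, and its EAA day 5 mean of 3.92 lay under the filter value, so the second size is uncertain. UGT71B1 (AT3G21750) read 6.88, 7.36 and 6.62, then 7.71, 7.35 and 7.71 in the reference, and 6.91, 6.89 and 6.88, then 7.54, 7.65 and 7.62 with EAA. Its differences of 0.64 and 0.71 passed in the fit of 15 arrays (adjusted p = 0.00587 and 0.0026) and not in that of 18. Over time with EAA, UGT71C4 rose by 0.43 (adjusted p = 0.0445) and UGT74B1, which encodes the glucosyltransferase of glucosinolate synthesis, fell by 0.5 (SE 0.16, adjusted p = 0.0239). The UGT74B1 arrays of EAA day 5 read 7.88, 8.64 and 8.44, and without replicate 1 the difference was -0.28 (adjusted p = 0.0788 in the fit of 14 arrays). The change of the EAA effect between the days, 0.26 for UGT71C4 and -0.53 for UGT74B1, did not pass in either fit.

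UGT76E11, UGT76E12, UGT87A2 and UGT73C1 spread widely between arrays of a day 5 group, with SDs up to 1.44 (UGT76E12 in the reference). The enzyme of UGT76E11 glucosylates flavonoids, UGT87A2 is known as a regulator of flowering time, and the UGT73C1 enzyme acts on cytokinins and foreign nitro compounds. UGT76E11 (AT3G46670) read 8.03, 6.14 and 7.77 in the day 5 reference arrays and 8.35, 7.52 and 7.87 with EAA. UGT76E12 (AT3G46660), its neighbour, read 6.63, 3.76 and 5.37 and then 7.67, 5.62 and 5.24. UGT87A2 (AT2G30140) read 9.96, 8.62 and 9.82 and then 10.33, 9.82 and 9.75. Reference replicate 2 was the lowest and EAA replicate 1 the highest of these day 5 arrays in all 3 genes.

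**Figure D4:**
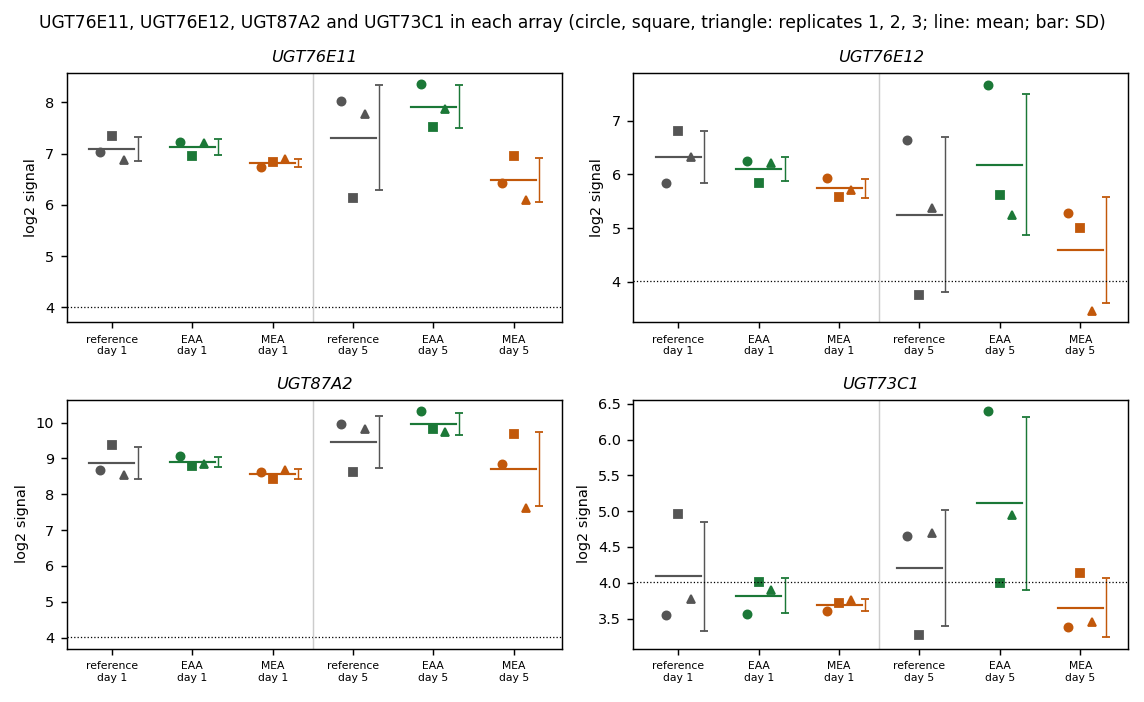
Log2 signal of UGT76E11, UGT76E12, UGT87A2 and UGT73C1 in every array by group, with the group mean as a line, the SD as a bar (n = 3) and the filter value of 4.01 as a dotted line. On day 5 the square of the reference (replicate 2) is the lowest and the circle of EAA (replicate 1) the highest among the reference and EAA arrays in each panel.

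UGT73C1 (AT2G36750) read 4.65, 3.27 and 4.69 in the day 5 reference arrays and 6.4, 3.99 and 4.94 with EAA, against 3.55, 4.96 and 3.77 and 3.56, 4.01 and 3.9 on day 1. Its time difference with EAA of 1.29 passed only in the fit of 15 arrays (adjusted p = 0.049) and stood at 0.64 without EAA day 5 replicate 1. UGT87A2 read 9.07, 8.8 and 8.84 with EAA on day 1, so the days did not overlap, and its difference of 1.06 passed in the fit of 15 arrays (adjusted p = 0.00796) and, at 0.88, also without EAA day 5 replicate 1 (adjusted p = 0.0367). In the reference its difference was 0.6 with overlapping days.

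Across the 25 tested genes, reference day 5 replicate 2 lay more than 0.5 below the mean of the other 2 reference arrays in 7 genes and more than 0.5 above in 2, against 9.44% and 8.02% of all probe sets tested. The 7 were UGT72E1, UGT73B5, UGT73C1, UGT76E11, UGT76E12, UGT84A3 and UGT87A2. EAA day 5 replicate 1 lay more than 0.5 above its group in 8 genes and below in 2, against 9.16% and 12.6% of all probe sets, and 6 of the 8 (UGT73B5, UGT73C1, UGT76E11, UGT76E12, UGT84A3 and UGT87A2) were among those 7. The same overlap over all probe sets is not given here, so it cannot be said whether this one is particular to UGT genes. Without reference day 5 replicate 2, the fit of the 14 remaining arrays called 16 of 25 genes over time in the reference, 9 higher and 7 lower, against 43.7% of all probe sets. Its differences of UGT76E11 and UGT87A2 were 0.81 and 1.02, in place of 0.22 and 0.6 with that array in. The array was singled out by these genes, so this count and these differences are a description.

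EAA against the reference on day 5 called none of the 25 genes in either fit, when 0% of all probe sets passed in the fit of 18 arrays and 1.58% in that of 15. At an unadjusted p under 0.05 the fit of 18 arrays gave 4 of 25, or 16%, against 7.45% of all probe sets, a difference in share that was not tested. The median difference of the 25 was 0.17, against -0.04 over all probe sets tested. MEA against the reference on day 1 also called 0 genes in both fits, where 0% of all probe sets passed, with 1 gene at an unadjusted p under 0.05 in the fit of 18 arrays (4%, against 1.24% of all probe sets), and EAA against MEA on day 1 called 0, where 0.022% and 0.0733% passed. Both EAA and MEA comparisons of a day share their reference arrays. UGT74D1 with MEA on day 1 read 6.89, 7.1 and 6.81, below all reference arrays, a difference of -0.39 (SE 0.15, adjusted p = 1). The MEA and reference arrays of day 1 did not overlap in UGT80B1 (0.16), UGT84A4 (0.16) and UGT84A3 (-0.26) either. The share of all probe sets without overlap is not given.

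**Figure D5:**
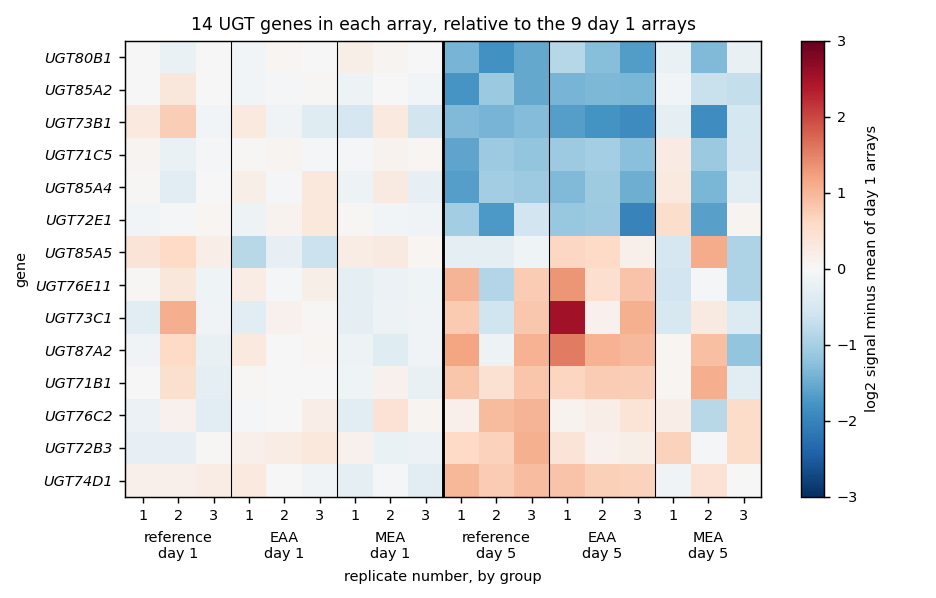
Log2 signal of the 14 UGT genes described array by array, each minus its mean over the 9 day 1 arrays (red higher, blue lower), in the 18 arrays by group and replicate number. In the MEA day 5 group the column of replicate 2 shows the blue of the other day 5 groups in UGT80B1, UGT73B1, UGT71C5, UGT85A4 and UGT72E1, while replicates 1 and 3 are paler.

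With MEA the fit of 18 arrays called no UGT gene between the days, when 3.92% of all probe sets passed and 5 of the 25 (20%) had an unadjusted p under 0.05, against 20.4% of all probe sets. The 3 arrays of day 5 did not read alike. UGT80B1 read 6.99, 5.86 and 6.97, UGT73B1 5.4, 3.83 and 5.18, UGT72E1 7.63, 5.47 and 7.18 and UGT85A4 5.77, 4.1 and 5.15, with replicate 2 each time within the range of the EAA day 5 arrays and replicates 1 and 3 above it. UGT85A5 read 5.79, 7.41 and 5.37, so here replicate 2 was the highest of all 18 arrays and replicate 3 the lowest. Replicate 2 alone differed from the MEA day 1 mean by -1.41 in UGT80B1, -1.33 in UGT85A4, -1.16 in UGT71C5, 0.93 in UGT85A5 and -0.91 in UGT76C2. UGT76C2 differed by 0.82 over time in the reference, the other way. These are examples and not the largest. Replicate 2 read 3.83 in UGT73B1 and 5.47 in UGT72E1, against MEA day 1 means of 5.45 and 7.05. It read 7.97 in UGT71B1 and 9.68 in UGT87A2, against 6.81 and 8.57. That array was singled out by its place on the axis between the days, which holds UGT80B1, UGT85A4, UGT71C5 and UGT73B1, so the differences are a description of 1 array with no test. The change of the MEA effect between the days called 0 genes in the fit of 18 arrays, when 0.103% of all probe sets passed, with 4 genes (16%) at an unadjusted p under 0.05, against 13.9% of all probe sets.

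MEA against the reference on day 5 called 4 genes, UGT85A2 (0.97, SE 0.18, adjusted p = 0.00559), UGT80B1 (1, SE 0.25, adjusted p = 0.0228) and UGT71C5 (0.82, SE 0.24, adjusted p = 0.0395) higher and UGT74D1 (-0.79, SE 0.15, adjusted p = 0.00603) lower, a share of 16% against 10.7% of all probe sets (4.02% higher, 6.65% lower). The UGT71C5 arrays of both groups overlapped. EAA against MEA on day 5 called 3, UGT76E11 (1.42, SE 0.37, adjusted p = 0.0466) and UGT74D1 (0.65, adjusted p = 0.0345) higher with EAA and UGT85A2 (-0.86, adjusted p = 0.0261) lower, a share of 12% against 3.85% (1.88% higher, 1.97% lower). Leaving out EAA replicate 1 or 3 or MEA replicate 1 or 3 ended all 3 of these calls, and UGT76E11 kept its call in 1 of 6 fits without an array of either group. With only the arrays of the groups compared, 0 genes passed in either comparison. The shares of all probe sets are not given for these smaller fits, so the lost calls do not tell the UGT genes from the whole array. Both comparisons share the MEA day 5 arrays. UGT85A2 read 6.87, 6.29 and 6.24 with MEA on day 5, above every reference and EAA array of day 5 in all 3 replicates. Replicate 2 alone stood above the reference mean of day 5 by 0.79 in UGT85A2, 0.26 in UGT80B1 and 0.17 in UGT71C5, and differed from it by -0.46 in UGT74D1, again with no test. Without replicate 2, and with replicates 1 and 3 kept, the counts were 11 (40.2%) and 15 (43.2%).

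Many members sit in groups of neighbouring genes, a feature that the rule did not use. By the RefSeq gene order 29 of the 45 genes fell into 12 groups with steps of at most 3 genes. Neighbours with a call did not always share it. In the group of UGT71C5, UGT71C4 and UGT71C3, UGT71C5 fell and its neighbour UGT71C4 rose with EAA over time. In the group of UGT85A7, UGT85A2, UGT85A5 and UGT85A3, UGT85A2 fell and UGT85A5 rose with EAA. Of neighbours that share much of their sequence, cross-hybridisation of probes was not tested.

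A list of 77 glycosyltransferase loci of the same family held 43 of the members, and 16 more had a probe set with another symbol or a locus code, of which 13 were tested. Over time 5 of the 13 rose and none fell in the reference, where 14.1% of all probe sets were higher and 16.9% lower (median difference 0.45, against -0.01 over all probe sets). With EAA 4 rose and 1 fell, where 15.7% were higher and 20.8% lower (median -0.05, against -0.02). In the fit of 15 arrays 6 and 7 of the 13 passed, against 43.9% and 48% of all probe sets. The faller was AT2G16890 (-1.13, adjusted p = 0.00104), which on day 1 stood higher with EAA than in the reference by 1.04 (adjusted p = 0.195, and 0.0227 in the fit of 15 arrays). For AT1G01390 the change of the EAA effect between the days was -1.08 (adjusted p = 0.79, and 0.0103 in the fit of 15 arrays). Over time with MEA 2 of the 13 rose and none fell, when 3.92% of all probe sets passed. These were IAGLU (1.23, adjusted p = 0.00202) and AT2G36970 (0.79, adjusted p = 0.0431). On day 5, 3 of the 13 were lower with MEA than in the reference and none higher, where 6.65% of all probe sets were lower and 4.02% higher. The differences were -1.08 for GT72B1, -0.99 for IAGLU and -0.91 for AT2G30150. Of lists for the pathways that supply acceptors, HCT was the 1 tested gene of phenylpropanoid synthesis and rose over time by 0.87 in the reference and 0.65 with EAA. CPI1, a cyclopropylsterol isomerase gene and the 1 tested gene of sterol synthesis, fell by 1.7 in both. The lists of glucosinolate core synthesis and UDP-sugar supply had no named probe set and were not analysed here.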

How the data were processed

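The authors deposited log2 array signals, 1 column per sample (the log2 scale is judged from the range of the values). The submitters' processing notes name MAS5, and neither scaling nor log step is stated in the sources used here. The values were used as deposited, without the 64 control probe sets. Gene names came from the platform annotation, matched to RefSeq by gene ID (assembly TAIR10.1). The files name no genome build, so no coordinates are given. limma 3.58.1 in R 4.3.3 (lmFit, eBayes with an intensity trend, 1 mean per group, 12 residual degrees of freedom) was fitted to 13648 probe sets with a mean of at least 4.01, with Benjamini-Hochberg adjustment over all of them within each of 11 comparisons. The same fit on 15 arrays (10 residual degrees of freedom) gave the 95% intervals. The number of arrays limits the precision. Every member may be named; values in each array are given for the 14 called members with the largest differences, and UGT76E12, shown array by array beside UGT76E11, was chosen after its values were seen. Members, lists and tests were chosen with earlier results of these data known. Simulated data of 13648 probe sets for day 5 against day 1 in the reference held 200 planted differences. The share recovered was 16% at a log2 size of 0.5, 72% at 1 and 84% at 2, with 7 false calls of 129. The real comparison called 4220 probe sets, so the adjustment cut at another p-value there and these shares do not carry over to it. A difference near 0.5 that did not pass may still have been missed. Plots were made with Python 3.11.15 and matplotlib 3.10.9.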

Additional observations from a re-analysis of the deposited data

Results flagged for a closer look

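UGT85A5 stood out because the EAA arrays lay below the reference on day 1 and above it on day 5, and because its change over time ran in opposite directions in the reference and EAA leaves, with no overlap of arrays in either case. Both descriptions rest on the same arrays and the same difference between effects, 1.64, tested as above, so they are not separate results. UGT72B3 showed arrays apart in the opposite order, above the reference on day 1 and below it on day 5, with a difference of -0.91 between the effects that did not pass.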

How the results depend on the processing

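Counts of the 25 tested genes (14 at the stricter filter, 45 with no filter) are given here where they moved by over 1.5 times. For EAA against the reference on day 1, the 15 arrays, the compared groups alone, array weights and the day 1 arrays each gave 1 in place of 0. For EAA against MEA on day 1, the compared groups alone, array weights and the day 1 arrays gave 1. For EAA against the reference on day 5 array weights gave 2. For MEA against the reference on day 5 the compared groups alone gave 0 and array weights 12, and for EAA against MEA on day 5 these gave 0 and 14. Over time in the reference, the 15 arrays gave 11 (43.9% of all probe sets passing) and the compared groups alone 11. The 60th percentile filter gave 4 of the 14 genes it kept, against 7 of 25 in the fit of 18 arrays. Array weights gave 14, and 15 arrays without reference day 5 replicate 2 gave 16 (43.7%). Over time with MEA, array weights gave 3 and replicate 2 alone 13. For the change of the EAA effect between days, the 15 arrays, the compared groups alone and 15 arrays with either doubted day 5 array left out gave 1 and array weights 2. For that of MEA, array weights gave 8. With array weights 44.1% of all probe sets passed for MEA against the reference on day 5, 45.5% for EAA against MEA, 52.1% over time in the reference and 32.9% for the change of the MEA effect, so counts rose over the whole array too. A count given without the share of all probe sets does not tell the UGT genes from the whole array. Fits that kept only replicate 2 of the MEA day 5 group rest on 1 array chosen by its values. The count of such a fit over time with MEA is therefore a description of 1 array and not a result for MEA. The counts of the other such fits are left out. The weights put MEA day 5 replicate 2 at 0.0764 and replicate 1 at 1.73. The causes were not tested.

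Leaving out 1 array gave 7 to 9 calls over time in the reference, 7 to 11 with EAA (7 without EAA day 1 replicate 1 or 3 or EAA day 5 replicate 1) and 0 to 2 with MEA. It gave 2 to 11 for MEA against the reference on day 5 (2 without MEA replicate 1 or 3 or reference replicate 3). For EAA against MEA on day 5 it gave 0 to 15 (0 without EAA replicate 1 or 3 or MEA replicate 1 or 3, 1 without EAA replicate 2). The 11 and the 15 came without MEA day 5 replicate 2, when 40.2% and 43.2% of all probe sets passed. The range was 0 to 7 for the change of the MEA effect, and 0 throughout for the other comparisons. Apart from the 11 and the 15, these counts come without the share of all probe sets and do not tell the UGT genes from the whole array. For each of the 14 genes only its largest called difference was followed, and none of these changed sign under any setting. They were chosen for their size, and the signs of the other differences of these genes were not followed through all settings. UGT76E11 in EAA against MEA on day 5 kept its call in 1 of 6 fits without an array of either group (1.2 to 1.65). Replicate numbers did not pair the arrays: 15 of 45 correlations between same-numbered deviations were over 0.1 and 6 of 18 arrays correlated best with their own number. The replicate block moved each count by at most 1, to 12 over time with EAA, 3 for MEA against the reference and 2 for EAA against MEA on day 5.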
